A study of Caenorhabditis elegans with 2 samples.

Results

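The 81 cytosolic ribosomal protein genes of *Caenorhabditis elegans* were examined in a map of where FKH-3, which belongs to the forkhead family of transcription factors, was found on the chromatin of whole young adult worms. They were all protein-coding genes of the Ensembl annotation whose symbol begins with rpl-, rps- or rla-, 81 of 19973 on the nuclear chromosomes, and comprised 47 genes of the large subunit, 31 of the small subunit and 3 of the stalk of the large subunit. Chromatin immunoprecipitation and sequencing (ChIP-seq) was done in 2 biological replicates of 1 group. The worms were strain OP594, which carries the *unc-119(tm4063)* allele on chromosome III and the transgene wgIs594, and expressed FKH-3 fused at its C-terminus to GFP and FLAG. Both replicates held both sexes, collected 63 h after starved L1 larvae were synchronised, and the immunoprecipitation used anti-GFP. No untagged worms were analysed here, and the promoter that drives the transgene is not given in the labels. The values are ranks of called regions within 4 deposited lists on ce11. Each replicate has 30000 regions that mix peaks with background, the pooled replicates have 30000, and 441 pooled regions passed the irreproducible discovery rate (IDR) threshold. Read depth is unknown, and a gene without a listed region is one with no region detectable in these lists, not one shown to be unbound.

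Ribosomal proteins form the body of the cytosolic ribosome around the ribosomal RNAs, and their genes are among the most active in growing cells. In *C. elegans* many messenger RNAs, those of ribosomal proteins among them, receive a spliced leader at their 5′ end, so that an annotated start can be the splice acceptor and not the place where transcription begins. Introns of ribosomal protein genes often carry snoRNA genes, whose products guide chemical modification of rRNA and snRNA. In budding yeast a protein with a forkhead domain, Fhl1, takes part in the control of ribosomal protein genes. Forkhead proteins as a family bind sequences related to GTAAACA.

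A gene was assigned every summit from 1000 bp upstream to 200 bp downstream of any of its transcript starts. Of the 81 genes, 6 (7.41%, exact binomial 95% interval 2.77 to 15.4%) had a summit of the IDR list, where 0.886% of all protein-coding genes had one. They were *rpl-3*, *rpl-15*, *rpl-20* and *rpl-35* of the large subunit, 4 of 47, and *rps-16* and *rps-26* of the small subunit, 2 of 31. Intervals here and below cover counting error of genes only, and no test was run on the list, whose members were proposed with earlier results of these data known. Windows of 100 bp on either side of the IDR summit are shown for 5 of these genes, because 4 of the 5 share letters that are seldom found at other summits. They are from the RefSeq assembly WBcel235, the same build as ce11, 5′ to 3′ on the strand of the gene. Capitals mark AAGTGTA and AACACGC on either strand, which read TACACTT or, for the second word, GCGTGTT on the opposite one.
rpl-3, chrIII:3867464-3867664, plus strand: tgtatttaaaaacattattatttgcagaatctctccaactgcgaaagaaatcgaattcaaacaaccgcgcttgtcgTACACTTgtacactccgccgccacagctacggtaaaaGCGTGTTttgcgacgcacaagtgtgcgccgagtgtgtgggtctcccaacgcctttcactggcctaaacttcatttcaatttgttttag
rpl-20, chrIV:4749982-4750182, minus strand: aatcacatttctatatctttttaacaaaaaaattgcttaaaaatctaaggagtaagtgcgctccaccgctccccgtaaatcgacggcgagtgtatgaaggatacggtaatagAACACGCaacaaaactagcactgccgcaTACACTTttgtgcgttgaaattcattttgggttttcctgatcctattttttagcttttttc
rpl-35, chrIII:7854590-7854790, plus strand: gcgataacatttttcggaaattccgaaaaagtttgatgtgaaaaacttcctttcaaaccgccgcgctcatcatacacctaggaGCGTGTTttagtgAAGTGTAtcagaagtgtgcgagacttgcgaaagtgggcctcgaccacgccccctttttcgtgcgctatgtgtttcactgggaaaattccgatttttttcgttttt
rpl-15, chrIV:654821-655021, minus strand: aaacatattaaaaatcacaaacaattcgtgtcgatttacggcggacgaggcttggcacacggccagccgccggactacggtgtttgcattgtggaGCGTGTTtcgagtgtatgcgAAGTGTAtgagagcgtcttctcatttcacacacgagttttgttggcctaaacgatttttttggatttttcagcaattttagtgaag
rps-16, chrV:15000350-15000550, minus strand: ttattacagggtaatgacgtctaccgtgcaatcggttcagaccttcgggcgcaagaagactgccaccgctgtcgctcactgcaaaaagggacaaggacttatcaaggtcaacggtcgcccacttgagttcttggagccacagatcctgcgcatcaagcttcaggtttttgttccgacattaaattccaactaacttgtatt

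The first 4 sequences lie upstream of large-subunit genes and each holds 1 copy of AAGTGTA and 1 of AACACGC. The fifth has its summit in an exon of *rps-16*, begins a few bases upstream of the gene, and holds neither. Words of 7 bases were counted on both strands in the windows of all 6 genes, and 4 words occurred in at least 4 of them. AAAAAAA and the word AAAAAAT were common everywhere, at 22.4 and 24.9% of the 30000 pooled windows. AAGTGTA was in 2.50% of pooled windows and AACACGC in 1.38%. Each was in 3.85% of the 441 IDR windows. These words were picked from the windows themselves, so their presence there is a description and no support for anything.

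Both words together were found in 13 of the 30000 pooled windows. Ordered by signal, the leading 4 of the 13 were those of *rpl-3*, *rpl-20*, *rpl-35* and *rpl-15*, at ranks 20, 81, 119 and 173. The next were at rank 186, 193 bp upstream of *cdc-48.1*, which encodes an AAA ATPase, and at rank 505, 304 bp upstream of *cox-5A*, for a cytochrome c oxidase subunit. The other 7 ranked from 3186 to 21380. As the words were taken from IDR windows of the family, the ranks of the leading 4 within the top 441 were set by that choice. Over the whole genome, 143 places had both words within 100 bp of each other. Of these, 5 had a summit of the pooled top 441 within 100 bp, and 17 had any pooled summit. The windows of the 81 ribosomal protein genes contained 4 of the 143 places, at the same 4 genes. The words were picked at these 4 genes, so their summits in the top 441 are no separate finding. Of 51 places in windows of other protein-coding genes, 1 had a pooled summit in the top 441 and 6 had any. Of the 88 places in no window of a gene, 0 had one in the top 441 and 7 had any, so most places with these letters had no listed summit. Promoters were taken as 250 bp before to 50 bp after the most upstream start. Those of the 81 ribosomal protein genes held AAGTGTA in 2 genes and AACACGC in 1. Of all protein-coding promoters, 4.54 and 2.53% held them. The 4 places at ribosomal protein genes lie more than 250 bp upstream, so the promoter counts leave them out. Counts this small do not set the family apart from the background, and the difference was not tested.

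*rpl-3* (WBGene00004414, III:3867854-3869587), which encodes a large-subunit protein near the peptidyl transferase centre, had the highest rank of the family. Its region, III:3867369-3867758, ranked 20 in the pooled list, 19 in replicate 1 and 24 in replicate 2. The summits of the replicates were 37 bp apart, and the pooled summit was 290 bp upstream of the nearest start and 3075 bp from the next start of another gene. In the small subunit, *rps-16* (WBGene00004485, V:15000018-15000541) came next, with ranks of 53 pooled, 41 in replicate 1 and 83 in replicate 2. Its product is the small-subunit protein whose tail reaches the P site. The region, V:15000255-15000644, had its summit 91 bp downstream of the start, in an exon, and the summits of the replicates were 7 bp apart. The start of *rps-16* lies 110 bp downstream of the end of *fib-1*, the gene for the rRNA methyltransferase fibrillarin, on the same strand.

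*rpl-20* (WBGene00004432, IV:4749123-4749778), *rpl-35* (WBGene00004449, III:7855134-7855646) and *rpl-15* (WBGene00004427, IV:653480-654576) encode other large-subunit proteins, and that of *rpl-35* sits by the polypeptide exit tunnel. The region at *rpl-20*, IV:4749887-4750276, ranked 81 pooled, 278 in replicate 1 and 80 in replicate 2, with the summit 304 bp upstream. That summit was nearer to *Y17G9B.5*, a divergent neighbour whose start is 158 bp away. At *rpl-35* the region III:7854495-7854884 ranked 119 pooled, 759 in replicate 1 and 84 in replicate 2, with the summit 444 bp upstream. The region at *rpl-15*, IV:654726-655115, ranked 173 pooled, 475 in replicate 1 and 199 in replicate 2, and its summit was 345 bp upstream. In replicate 1, *rpl-35* and *rpl-15* thus lay outside the top 441, whereas all 3 genes lay inside it in replicate 2. The summits of the replicates were 43, 21 and 9 bp apart at *rpl-20*, *rpl-35* and *rpl-15*.

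*rps-26* (WBGene00004495, I:14759930-14760626), for a small-subunit protein near the mRNA exit channel, differed from these in where the replicates put their signal. Its pooled region, I:14759306-14759695, ranked 367 with the summit 429 bp upstream. Replicate 1 had a summit of rank 104 at 935 bp upstream and one of rank 355 at 425 bp upstream. Replicate 2 had one of rank 369 at 603 bp upstream and one of rank 2853 at 402 bp upstream. The best summits of the replicates were therefore 332 bp apart. The pooled summit was 28 bp upstream of the divergent gene *tmem-107* and 89 bp from *F39B2.14*, a snoRNA gene at I:14759178-14759412. The summit of rank 369 in replicate 2, at I:14759327, lay inside that snoRNA gene. The pooled summit was the only IDR summit of the family within 100 bp of a tRNA, snoRNA or snRNA gene. Such a summit was assigned to 0.3% of all protein-coding genes.

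**Figure D1:**
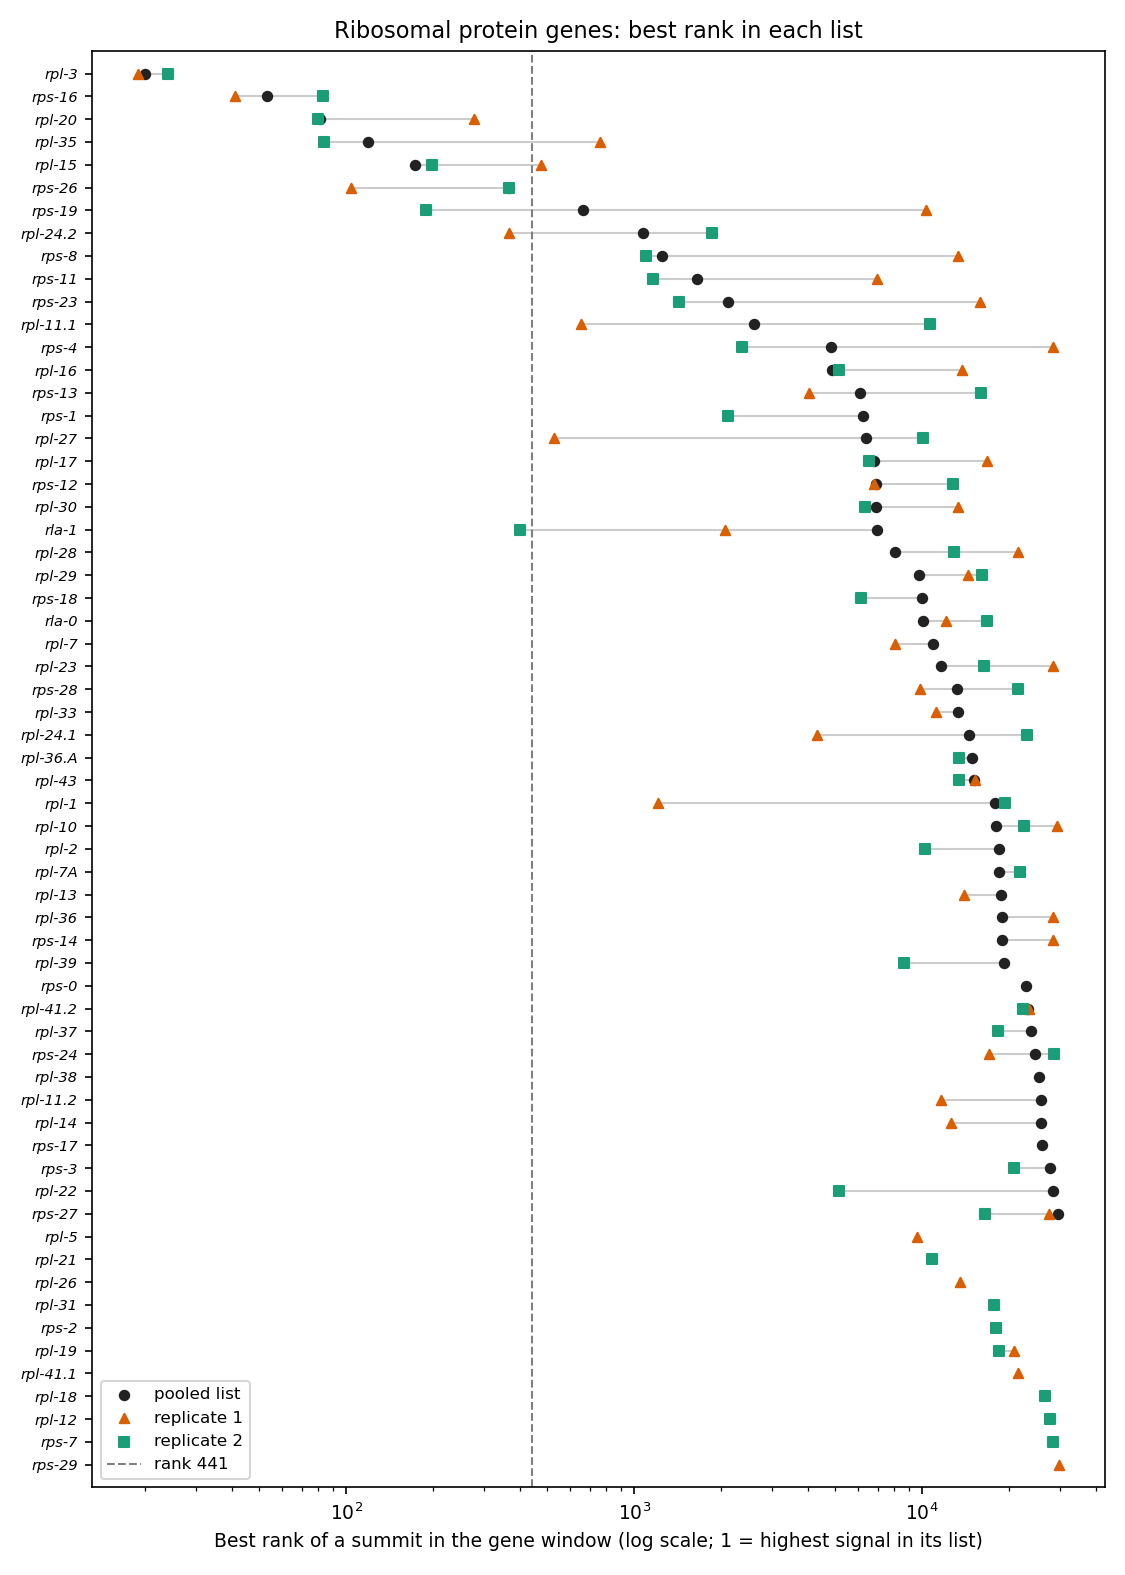
Best rank of a summit in the window of each ribosomal protein gene that has one, in the pooled list (circles), replicate 1 (triangles) and replicate 2 (squares), on a log scale where 1 is the highest signal, with rank 441 dashed. The 6 genes with an IDR summit sit left of the line in the pooled list, *rps-19*, *rpl-24.2* and *rla-1* cross it in 1 replicate, and most of the rest lie beyond rank 5000.

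The replicates are the only check of repeatability in these data. In replicate 1, 5 of the 81 genes (6.17%) were in the top 441, against 0.846% of all protein-coding genes, and in replicate 2 there were 8 (9.88%), against 0.876%. Being in the top 441 of both replicates was seen for 4 genes (4.94%, interval 1.36 to 12.2%), *rpl-3*, *rps-16*, *rpl-20* and *rps-26*, where the share of all protein-coding genes was 0.456%. Without summits within 100 bp of a tRNA, snoRNA or snRNA gene the count was 3, as *rps-26* dropped out. The share of all protein-coding genes was not counted in that way. The top 441 of either replicate took in 9 genes (background 1.27%), the 6 IDR genes and *rpl-24.2*, *rps-19* and *rla-1*. The top 5000 of both replicates took in 8 genes (9.88%; background 3.13%). These counts ask for a summit anywhere in the window, not at the same site in both replicates. The best summits of the replicates were 332 bp apart at *rps-26*. They were 1023 bp apart at *rla-1*, which is among the 8.

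*rps-19*, the worm gene of a small-subunit protein whose human gene is mutated in Diamond-Blackfan anaemia, ranked 667 in the pooled list and was the closest below the IDR threshold. It ranked 189 in replicate 2, with the summit 280 bp upstream. The best summit of replicate 1 ranked 10350 at 161 bp downstream, and a weaker one of rank 24949 lay 313 bp upstream, near that of replicate 2. The pooled summit was 140 bp from the start of *hsr-9*, nearer than its own gene's start. *rpl-24.2*, a large-subunit family gene, ranked 1072 pooled, 368 in replicate 1 and 1870 in replicate 2, with summits 82 bp apart. *rla-1*, for an acidic stalk protein, had a summit of rank 403 at 191 bp downstream in replicate 2. Its best summit in replicate 1, of rank 2065, was 832 bp upstream, and none of replicate 1 lay near the best one of replicate 2. A weaker summit of replicate 2, of rank 20896, lay 749 bp upstream, near that of replicate 1. The pooled rank of *rla-1* was 6988. In these 3 genes the high rank belonged to 1 replicate.

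Further down the pooled list, *rps-8* ranked 1249, *rps-11* 1651, *rps-23* 2117 and *rpl-11.1* 2609. *rps-23* encodes a protein of the decoding centre and *rpl-11.1* one that binds the 5S rRNA. In replicate 2, the best ranks of *rps-8*, *rps-11* and *rps-23* were 1099, 1164 and 1427, and in replicate 1 they were 13326, 6961 and 15847. At *rps-11* the best summit of replicate 1 was another one, 22 bp upstream. Its summit near the pooled one, which lay 621 bp upstream, was 606 bp upstream and ranked 15023. *rpl-11.1* was the other way round, at 654 in replicate 1 and 10678 in replicate 2. Its pooled summit, 141 bp upstream of an internal start, lay in an exon, as did that of *rps-8*, 14 bp upstream of an internal start. The next in order were *rps-4* at 4819, *rpl-16* at 4859, *rps-13* at 6081 and *rps-1* at 6221. Their best ranks were 28534, 13753 and 4045 in replicate 1, where *rps-1* had no summit, and 2369, 5161, 16007 and 2118 in replicate 2. At *rpl-16* the best summit of replicate 1 lay 63 bp downstream. The one near the pooled summit, 685 bp upstream, ranked 19731 in replicate 1. The plot of best ranks shows these gaps between the replicates. Ranks of the 33 genes with a summit in both replicates had a Spearman rho of 0.58, the IDR genes included, beside 0.38 over the 4045 other genes with one in both. This is a description over genes that share the same libraries. Of the 33, 15 (45.5%) had their best summits within 100 bp of each other. Of the 4045 other genes, 1700 did.

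The pooled list as a whole, background included, had a summit for 51 of the 81 genes (63.0%, interval 51.5 to 73.4%), where 34% of all protein-coding genes had one. The share was 31 of 47 for the large subunit, 18 of 31 for the small subunit and 2 of 3 for the stalk. In the top 5000 of that list were 14 genes (17.3%, interval 9.78 to 27.3%; background 7.49%), 7 of each subunit and 0 of the stalk. Replicate 1 had a summit for 44 genes (54.3%; background 34.3%) and replicate 2 for 48 (59.3%; background 34.8%). With absent genes counted last, the median best rank over all 81 genes was 22882 in the pooled list, 28508 in replicate 1 and 21804 in replicate 2, while the median of the other protein-coding genes lay beyond the end of each list.

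**Figure D2:**
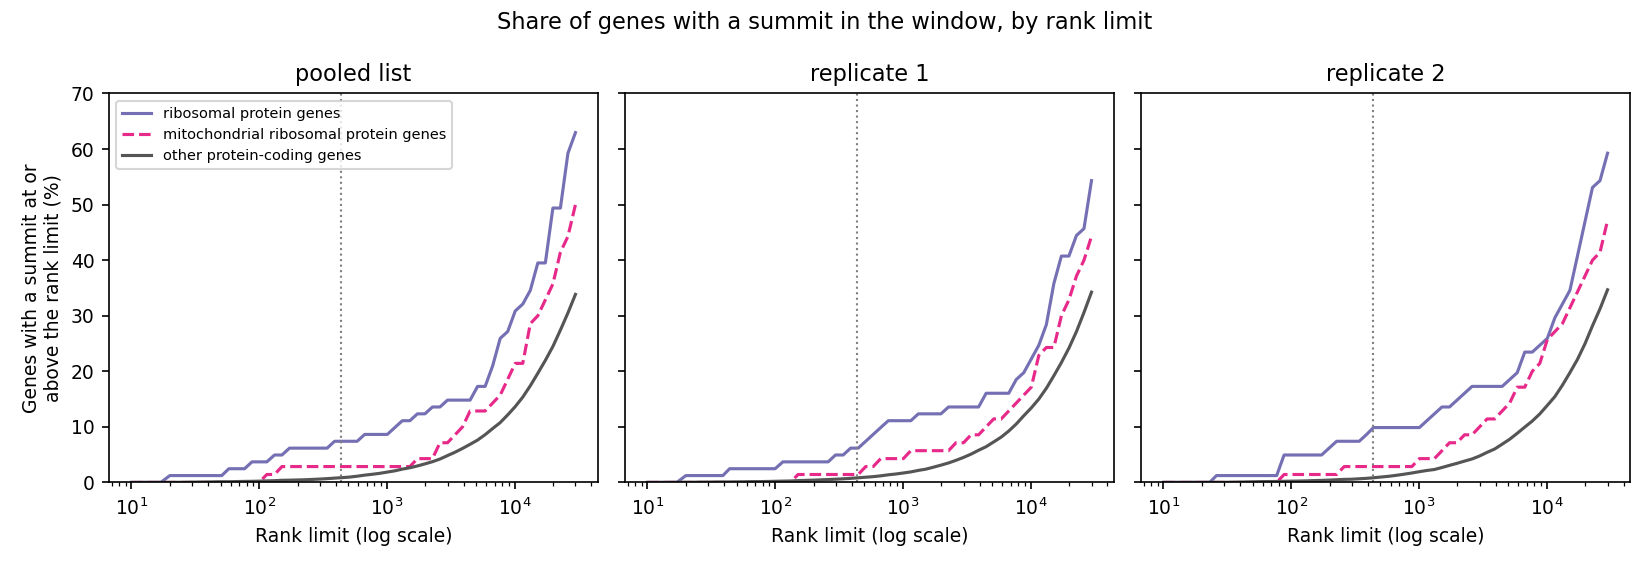
Share of genes with a summit at or above a given rank, in the pooled list and in each replicate, for the 81 ribosomal protein genes, 70 mitochondrial ribosomal protein genes and 19892 other protein-coding genes. The rank limit is on a log scale with rank 441 dotted, and the line of the ribosomal protein genes ends at 63.0% in the pooled list, that of the other genes at 33.8%.

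A summit in both replicates was found for 33 of the 81 genes (40.7%; background 20.4%), 19 of the large subunit, 12 of the small subunit and 2 of the stalk. They were *rla-0*, *rla-1*, *rpl-1*, *rpl-3*, *rpl-10*, *rpl-11.1*, *rpl-15*, *rpl-16*, *rpl-17*, *rpl-19*, *rpl-20*, *rpl-23*, *rpl-24.1*, *rpl-24.2*, *rpl-27*, *rpl-28*, *rpl-29*, *rpl-30*, *rpl-35*, *rpl-41.2*, *rpl-43*, *rps-4*, *rps-8*, *rps-11*, *rps-12*, *rps-13*, *rps-16*, *rps-19*, *rps-23*, *rps-24*, *rps-26*, *rps-27* and *rps-28*. Of all protein-coding genes, those outside the 20.4% with both and the 51.3% with neither had a summit in 1 replicate. Among the 81 genes there were 26. These were *rpl-2*, *rpl-5*, *rpl-7*, *rpl-7A*, *rpl-11.2*, *rpl-12*, *rpl-13*, *rpl-14*, *rpl-18*, *rpl-21*, *rpl-22*, *rpl-26*, *rpl-31*, *rpl-33*, *rpl-36*, *rpl-36.A*, *rpl-37*, *rpl-39*, *rpl-41.1*, *rps-1*, *rps-2*, *rps-3*, *rps-7*, *rps-14*, *rps-18* and *rps-29*. The remaining 22 genes (27.2%; background 51.3%) had none in either replicate. They were *rla-2*, *rpl-4*, *rpl-6*, *rpl-9*, *rpl-25.1*, *rpl-25.2*, *rpl-32*, *rpl-34*, *rpl-38*, *rpl-42*, *rps-0*, *rps-5*, *rps-6*, *rps-9*, *rps-10*, *rps-15*, *rps-17*, *rps-20*, *rps-21*, *rps-22*, *rps-25* and *rps-30*. Of these, *rpl-38*, *rps-0* and *rps-17* had a pooled summit all the same, at ranks 25354, 22882 and 26059, which left 19 genes (23.5%; background 49.8%) with none in any list. Paralogous pairs such as *rpl-11.1* and *rpl-11.2* or *rpl-25.1* and *rpl-25.2* may share reads, and how the authors placed such reads is not given in the sources used here.

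Among the 51 genes with a pooled summit, the best one lay upstream of the nearest annotated start in 44 (86.3%), with a median of -305 bp. In the 6733 other genes with one, 74.7% lay upstream, with a median of -273 bp. With the replicates taken alone the gap was smaller or turned round. Upstream were 32 of 44 genes in replicate 1 (72.7%, against 74.4% of other genes) and 37 of 48 in replicate 2 (77.1%, against 74.4%). Within 200 bp of a start in the pooled list were 19 of the 51 (37.3%), against 43.3% in the other genes. Of all 81 genes, again in the pooled list, 12 had a pooled summit from 600 to 400 bp upstream (14.8%, against 6.15% of other genes) and 10 from 400 to 200 bp upstream (12.3%, against 6.22%). The last 200 bp before the start held a summit for 12 (14.8%, against 8.16%), and the first 200 bp downstream for 10 (12.3%, against 10.2%). Of the remaining bins of 200 bp, the one farthest upstream had 10 genes (12.3%, against 6.17%) and the next 6 (7.41%, against 6.00%). In replicate 1 the bin with most genes was the first 200 bp downstream, with 15 genes (18.5%, against 10.1%). In replicate 2 the bins on either side of the start had 12 genes each (14.8%). Of other genes, 8.24% had one in the bin before the start and 10.3% in the bin after it.

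**Figure D3:**
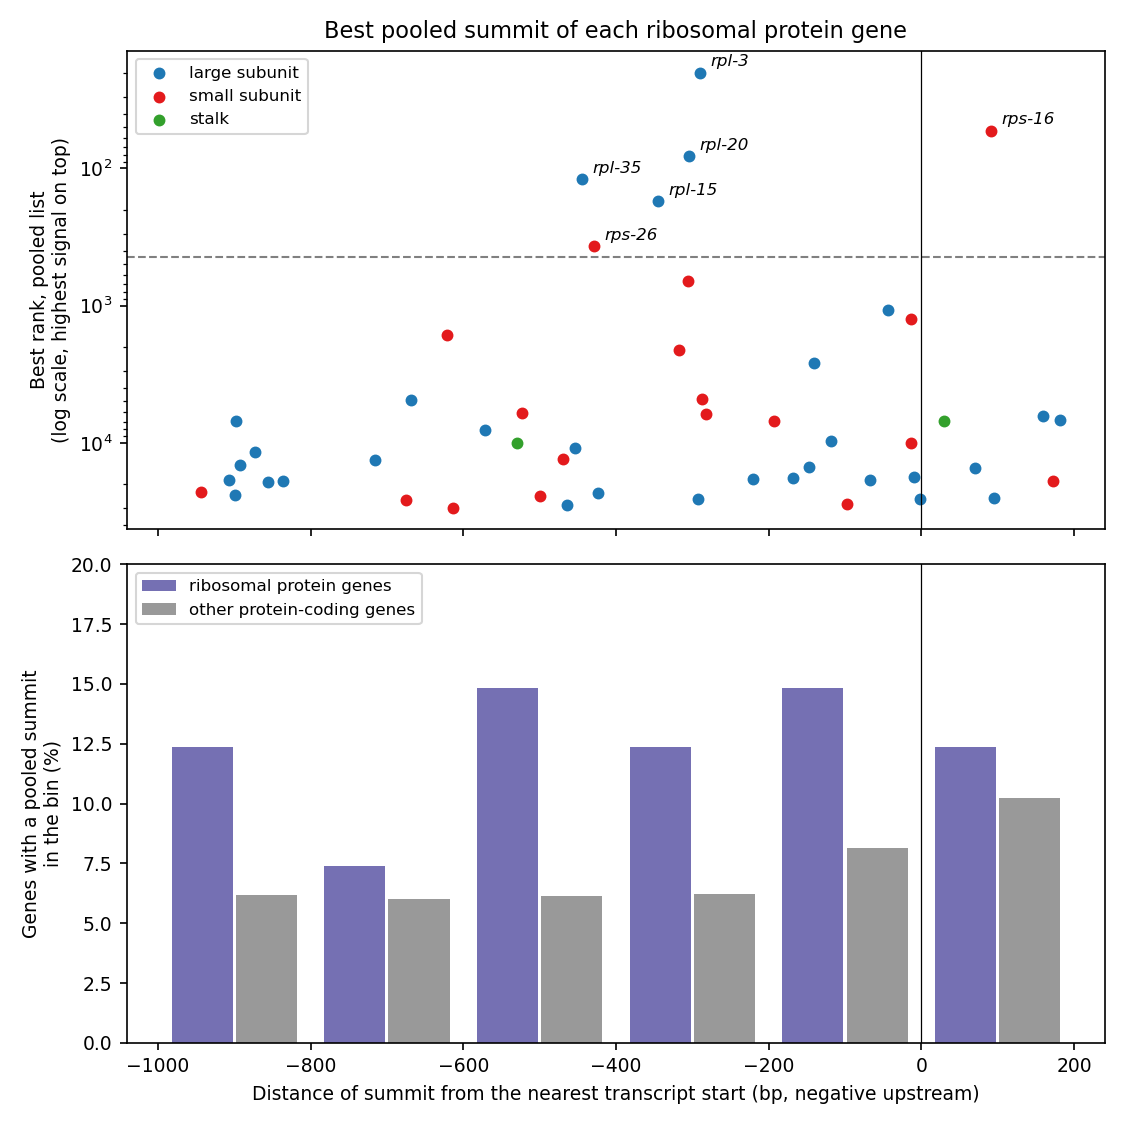
Upper panel, best pooled rank (log scale, highest signal on top) of each ribosomal protein gene against the distance of that summit from the nearest transcript start in bp, with rank 441 dashed; lower panel, share of genes with a pooled summit in each 200-bp bin. Of the 6 genes above the line, 5 have their summit 290 to 444 bp upstream and *rps-16* has it 91 bp downstream.

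The best pooled summit lay between protein-coding genes for 27 of the 51 (52.9%), against 41.9% of the 6733 other genes with one. It was in an exon of the gene itself for 8 (15.7%, against 22.1%) and in its intron for 1 (1.96%, against 12.7%). For 15 it was inside another protein-coding gene (29.4%, against 23.2%). For 16 of the 51 (31.4%) the start of another gene was nearer to the summit, and this held for 15.5% of the other genes with a pooled summit. A single pair of neighbouring ribosomal protein genes shared its best pooled summit. *rpl-36* and *rps-14*, which are divergent and 663 bp apart, had the same best summit, of rank 18980, so the 51 genes had 50 distinct summits. The median GC content of these windows of 100 bp on either side of the summit was 42.8%, against 40.8% at the other genes' best summits and 44.8% over all IDR summits. The 6 IDR windows of the family ranged from 37.8 to 48.3%.

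Genes for snoRNAs were frequent inside the genes of the family, and none of those snoRNA genes had an IDR summit. A snoRNA gene lay inside the span of 13 of the 81 genes (16.0%; background 0.961%), 19 snoRNA genes in all, each in an intron and on the strand of its host. *rpl-6* carried 3, and *rpl-7A*, *rpl-15*, *rps-12* and *rps-29* carried 2 each. The other hosts were *rpl-2*, *rpl-4*, *rpl-7*, *rpl-24.1*, *rpl-26*, *rps-4*, *rps-13* and *rps-23*. The stalk genes *rla-0* and *rla-1* each had 1 within 500 bp. Of these 21 snoRNA genes, 0 had an IDR summit within 100 bp, and 6 had a pooled one. Of the other 325 snoRNA genes, 53 (16.3%) had an IDR summit and 131 (40.3%) a pooled one. Of the 13 hosts, 9 had a pooled summit in the window and 1 an IDR summit, which is 69.2 and 7.69%. Of the 179 other protein-coding genes with a snoRNA gene inside, 58.1% had a pooled and 7.26% an IDR summit. Of the 68 ribosomal protein genes without one inside, 42 (61.8%) and 5 (7.35%) did, beside 33.6 and 0.802% of the other protein-coding genes without one. The difference between hosts and the rest was not tested.

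Among the 21 snoRNA genes inside or within 500 bp of a ribosomal protein gene, the summits of highest signal were at *F54E7.11* in *rps-12*, 24 bp upstream of its 5′ end, and at *Y43B11AR.7* in *rps-4*, 7 bp upstream. The first ranked 1230 pooled, 437 in replicate 1 and 6719 in replicate 2. The other ranked 2092 pooled and 445 in replicate 1, with no summit of replicate 2 within 100 bp. *F25H2.14*, downstream of *rla-0*, followed with ranks of 3379 pooled, 2976 in replicate 1 and 6356 in replicate 2. *rpl-15*, a host with an IDR summit, had that summit upstream of the gene. Its snoRNA genes had a pooled summit of rank 20772 at *K11H12.13* and none at *K11H12.12*. At *K11H12.12*, replicate 1 had a summit of rank 6581, 7 bp downstream of the 5′ end, and replicate 2 had none. The best pooled summit in the window was within 100 bp of a snoRNA gene for 1 of the 81 genes, *rps-26*, where the background was 0.215%.

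Forkhead letters were searched on both strands as GTAAACA and its variants, which were GTAAATA, then ATAAACA, and lastly ATAAATA. None of the 6 IDR windows of the family held any of these words. They were in 5 of the 50 distinct best pooled windows (10%), and in 13.7% of all 30000 pooled windows and 53 of the 441 IDR windows. GTAAACA itself was in 0 of the 50 and in 2.14% of all pooled windows. In the promoters of 301 bp, the forkhead words were in 28 of 81 ribosomal protein genes (34.6%), beside 34.0% of all protein-coding genes. ATGCGC, on both strands, was in 1 of the 6 windows, that of *rps-16*, and in 9.30% of IDR and 4.30% of pooled windows. CGCGCA was in 0 of the 6, and in 11.3 and 4.77%. TATAAA was in 0 of the 6 and 3 of the 50 (6%), and in 15.0% of IDR and 14.2% of pooled windows. Among promoters it was in 22 of the 81 (27.2%), against 38.0% of all promoters. TTTCAG, the letters of a worm splice acceptor, was searched on the strand of the gene and stood within the 12 bases before the most upstream start in 40 of 81 (49.4%), against 13.6% of all protein-coding genes. Positions relative to the annotated start therefore refer, for many of these genes, to a place that carries the letters of an acceptor. These matches are letters in a window, and neither a match nor the lack of one shows anything about the factor.

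Other gene groups of protein synthesis and growth were counted in the same way. Over all protein-coding genes the share was 0.886% with an IDR summit and 34% with a pooled one. A count of 0 IDR summits in a short list therefore does not set it apart from the background. Mitochondrial ribosomal protein genes had an IDR summit in 2 of 70 (2.86%) and a pooled one in 35. The 2 were *mrps-28* (rank 109, 996 bp upstream) and *mrpl-23* (rank 137, 962 bp upstream), both near the far edge of the window. Initiation factor genes had 2 of 35 (5.71%) and 15 pooled, with *eif-2Bgamma* at rank 88 and *eif-3.C* at rank 416. Ribosome biogenesis genes had 1 of 11, *pro-1*, which acts in rRNA processing, at rank 365, and 6 pooled. Elongation factors had 0 of 6, aminoacyl-tRNA synthetases 0 of 20, RNA polymerase I subunits 0 of 4, proteasome subunits 0 of 33 and histones 0 of 72, with 4, 9, 3, 16 and 26 pooled. *ubl-1*, *ubq-2* and *rack-1*, which encode ribosomal proteins named outside the rule, had 0 IDR summits and 1 pooled one, at *ubq-2* with rank 9127. No difference between these groups was tested.

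**Figure D4:**
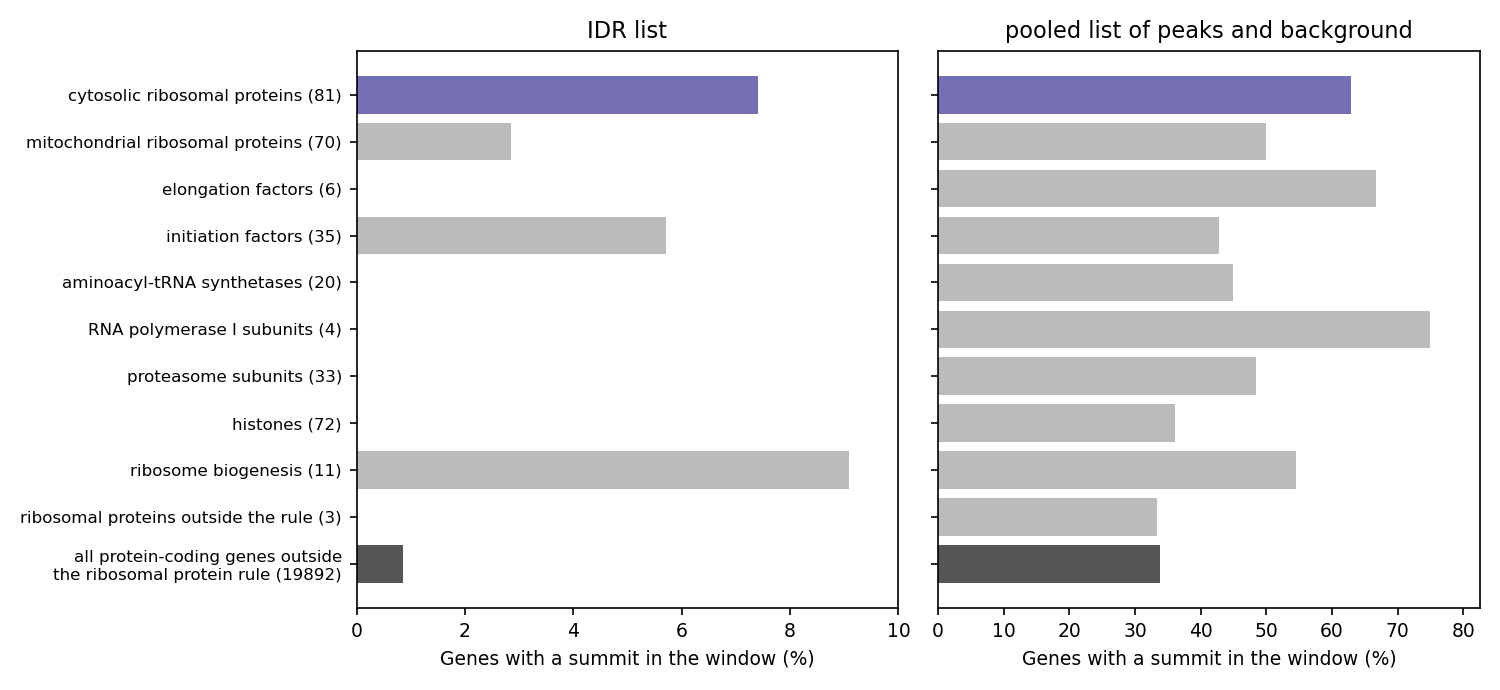
Share of genes with a summit in the window, for the IDR list (left) and the pooled list (right), with the number of genes in brackets; bars start at 0. The ribosomal protein genes stand at 7.41 and 63.0%, the protein-coding genes outside the rule at 0.860 and 33.8%, and the single gene of the biogenesis list with an IDR summit gives it 9.09%.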

How the data were processed

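ChIP-seq regions of 2 biological replicates of 1 group were used as the authors deposited them. Per the labels, the chromatin was sheared by sonication. Each deposited list gives, for a region, a signal score of unstated scale, the summit, and a q-value as −log10 by the authors. The sources used here name no caller or aligner. Lists labelled as input for the IDR step hold peaks and background, per the descriptions the authors deposited, and the pooled list and IDR list combine both replicates. The 441 IDR regions were the 441 of highest score in the pooled list. Median region widths were 364 bp (replicate 1), 400 bp (replicate 2) and 390 bp (pooled list). Lists on ce10 were not used.

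Scores were turned into ranks within a list (no ties). Summits were assigned to genes of Ensembl release 115 (WBcel235, the assembly of ce11), and all regions lay within the chromosome lengths. The background is all 19973 protein-coding genes. Exact binomial 95% intervals are Clopper-Pearson. Sequences came from the RefSeq copy of the assembly. The tools were scipy 1.17.1, pandas 2.3.3, matplotlib 3.10.9, numpy 2.4.6 and Python 3.11.15, and the assignment was tested on simulated summits.

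The genes and lists were chosen with earlier results of these data known, as were ATGCGC and CGCGCA. Genes were named if they had an IDR summit, were in the top 441 of either replicate, were among the next 10 by pooled rank, carried a snoRNA gene inside or within 500 bp, or were among the up to 4 genes with an IDR summit in another list. *fib-1*, *ubq-2*, neighbouring genes, the 3 genes with a pooled summit alone, the word AAGTGTA, the word AACACGC, the genes at them, and the position of TTTCAG were picked with their values in view. The biogenesis list had 12 symbols, of which *nol-1* was not matched. Alternatives covered the window, starts, assignment, rank column, thresholds, each replicate alone and small RNA genes. A single group allows no comparison of conditions, so there are no p-values.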

Additional observations from a re-analysis of the deposited data

How the results depend on the processing

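No paired analysis was possible because the 2 replicates form a single group. The count of genes with an IDR summit, 6, was set beside 11 alternatives, which gave 4 to 8. Some of these put another list or rank limit in place of the IDR list. It was 6 with both other windows (0.462% of other protein-coding genes in the narrow one, 500 bp upstream to 100 bp downstream, and 1.48% in the wide one, 2000 bp upstream to 500 bp downstream), and 4 when each summit counted for the nearest start only (*rpl-20* and *rps-26* dropped out; 0.719%). It was 5 without summits at small RNA genes, and 5 to 8 leaving out each replicate.

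Other values moved. Genes with a pooled summit, 51, were 33 with the narrow window (40.7%, against 20.6% of other genes), 35 with the nearest start only (43.2%, against 29.3%) and 14 in the top 5000. Genes in the top of both replicates, 4, were 2 with the nearest start only and 8 in the top 5000. The median pooled rank, 22882, ranged from 21804 to 28508 over the replicates taken alone, was 9112 with the wide window, and was 30001, the value set for an absent gene, under the narrow window and the nearest start. The median offset, -305 bp, was -168 bp with the nearest start only. The count near a snoRNA gene, 1, was 2 with the wide window, 0 under the nearest start or for summits inside the snoRNA gene, and 1 to 2 over the replicates taken alone. The cause was not tested, except that narrower windows and stricter limits take in fewer summits. Read depth is unknown and limits what an absent region can show.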

Other observations

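The 81 ribosomal protein genes were spread over the chromosomes with 25 on I, 10 on II, 18 on III, 18 on IV, 8 on V and 2 on X. A pooled summit was in the window of 15, 5, 12, 11, 7 and 1 of them in that order, and an IDR summit of 1, 0, 2, 2, 1 and 0. Of the other protein-coding genes on those chromosomes, a pooled summit was in the window of 997 of 2853, 1162 of 3439, 931 of 2622, 970 of 3263, 1583 of 4986 and 1090 of 2729, and an IDR summit of 23, 33, 36, 31, 24 and 24. By the arrangement of the upstream neighbour, 48 genes had a divergent protein-coding gene within 1000 bp, and 29 of these (60.4%) had a pooled summit and 3 an IDR summit. With a protein-coding gene ending within 500 bp upstream on the same strand there were 9 genes, 5 of them with a pooled summit and 1, *rps-16*, with an IDR summit. The other 24 had 17 (70.8%) and 2. No test was made between these arrangements. They were not counted over the other protein-coding genes, so these shares have no background of the same arrangement. Over all protein-coding genes, whatever their neighbours, 34% had a pooled summit and 0.886% an IDR summit.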
